A study of Mus musculus with 9 samples.

Results

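Toll-like receptors (TLRs) and NOD receptors were examined in macrophages of the tumor-bearing mouse lung, together with the adaptors and kinases that carry their signals. The 36 genes were taken by name, 17 of them receptors or their accessory proteins and 19 of them adaptors or kinases, from 24346 gene symbols measured. A member was tested where its FPKM (a fragment count divided by transcript length and by library depth) reached 1 in at least 3 of the 9 samples. This left 33 members, 15 receptors or accessory proteins and 18 adaptors or kinases, among 10686 genes tested. Tlr9, Nod2 and Mapk8 stayed below that level and are described by their values.

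RNA was sequenced from 3 sorted populations with 3 samples each, all from lungs of C57BL/6 mice at postnatal week 10. Ctrl-AM were alveolar macrophages (AMs) of control mice that received vehicle. Tumor-AM were AMs of mice with tumors of LLC-tdTomato cells, Lewis lung carcinoma cells of mouse origin that carry a red fluorescent protein, and Tumor-macrophage were the tumor-associated macrophages (TAMs) of tumor-bearing mice. Per the study's methods the mice were female, control and experimental mice were bred separately, and lungs were digested with enzymes without perfusion. Cells were gated as CD45+ and autofluorescent, with Siglec-F+ cells taken as AMs and Siglec-F- F4/80+ CD11b+ cells as TAMs. Each sorted population came from 3 mice per the study's description, and it was not stated whether same-numbered Tumor-AM and Tumor-macrophage samples shared a mouse.

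TLRs recognise microbial or damaged-cell products at the cell surface or in endosomes, and NOD1 and NOD2 sense fragments of bacterial cell wall in the cytosol. Most TLRs recruit the adaptor MyD88, which engages IRAK kinases, the ubiquitin ligase TRAF6 and the kinase TAK1 (encoded by Map3k7). TAK1 then feeds the kinases MKK4 and MKK7 (Map2k4 and Map2k7), which activate JNK (Mapk8 and Mapk9), as well as p38 (Mapk14) and the NF-kappaB arm. TRIF (Ticam1) serves TLR3 and, with TRAM (Ticam2), internalised TLR4, while the NOD receptors use the kinase RIPK2. In the lung, AMs meet inhaled microbes first, and the study asked how AMs of tumor-bearing mice come to express Inhba. It measured Inhba in AMs of tumor-bearing MyD88 knockout mice. In an AM cell line given LLC supernatant, it measured Inhba with a JNK inhibitor. There, JNK phosphorylation was the readout for inhibitors of TLR4, MyD88 and TAK1.

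Between Tumor-AM and Ctrl-AM, 5 of 33 tested members rose and 0 fell, a share of 15.2%, while 10.3% of all genes tested were called by limma at an adjusted p under 0.05 (7.11% higher and 3.18% lower). The 5 were Cd14 and Unc93b1 among 15 receptors and accessory proteins, and Ripk2, Irak3 and Map2k4 among 18 adaptors and kinases. Of the TLRs themselves, 0 of 9 passed. After rescaling to TPM, which gives every sample the same sum, 3 of 33 members (9.09%) passed against 12.2% of all genes, so the members' share lay above the background in FPKM and below it in TPM, while calls over all genes went from 760 higher and 340 lower to 468 higher and 837 lower. The median log2 change in FPKM was 0.20 over receptors and accessory proteins and 0.07 over adaptors and kinases, against 0.01 over all genes.

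Between Tumor-macrophage and Tumor-AM, 12 of 15 receptors and accessory proteins changed, 8 higher and 4 lower in Tumor-macrophage, and 7 of 18 adaptors and kinases changed, 5 higher and 2 lower. Over all genes, 48.6% were called in this comparison, so the 80.0% of receptors and accessory proteins lay above that background. The 38.9% of adaptors and kinases was not far from it over 18 genes, and in TPM it was 44.4% against 49.2% of all genes. The median log2 change was 0.58 for receptors and accessory proteins and -0.02 for adaptors and kinases. Within the former class it was -0.41 over the 9 tested TLRs (3 higher, 4 lower). Over the 5 accessory proteins it was 1.59 (5 higher, 0 lower). Between Tumor-macrophage and Ctrl-AM, 12 of 15 receptors (8 higher, 4 lower) and 11 of 18 adaptors and kinases (9 higher, 2 lower) changed, against 54.8% of all genes. In TPM these became 15 receptors (8 higher, 7 lower) and 6 adaptors and kinases (3 higher, 3 lower), while all genes went from 2960 higher and 2900 lower to 2133 higher and 4412 lower. Any pair of these comparisons shares 1 group of samples.

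**Figure D1:**
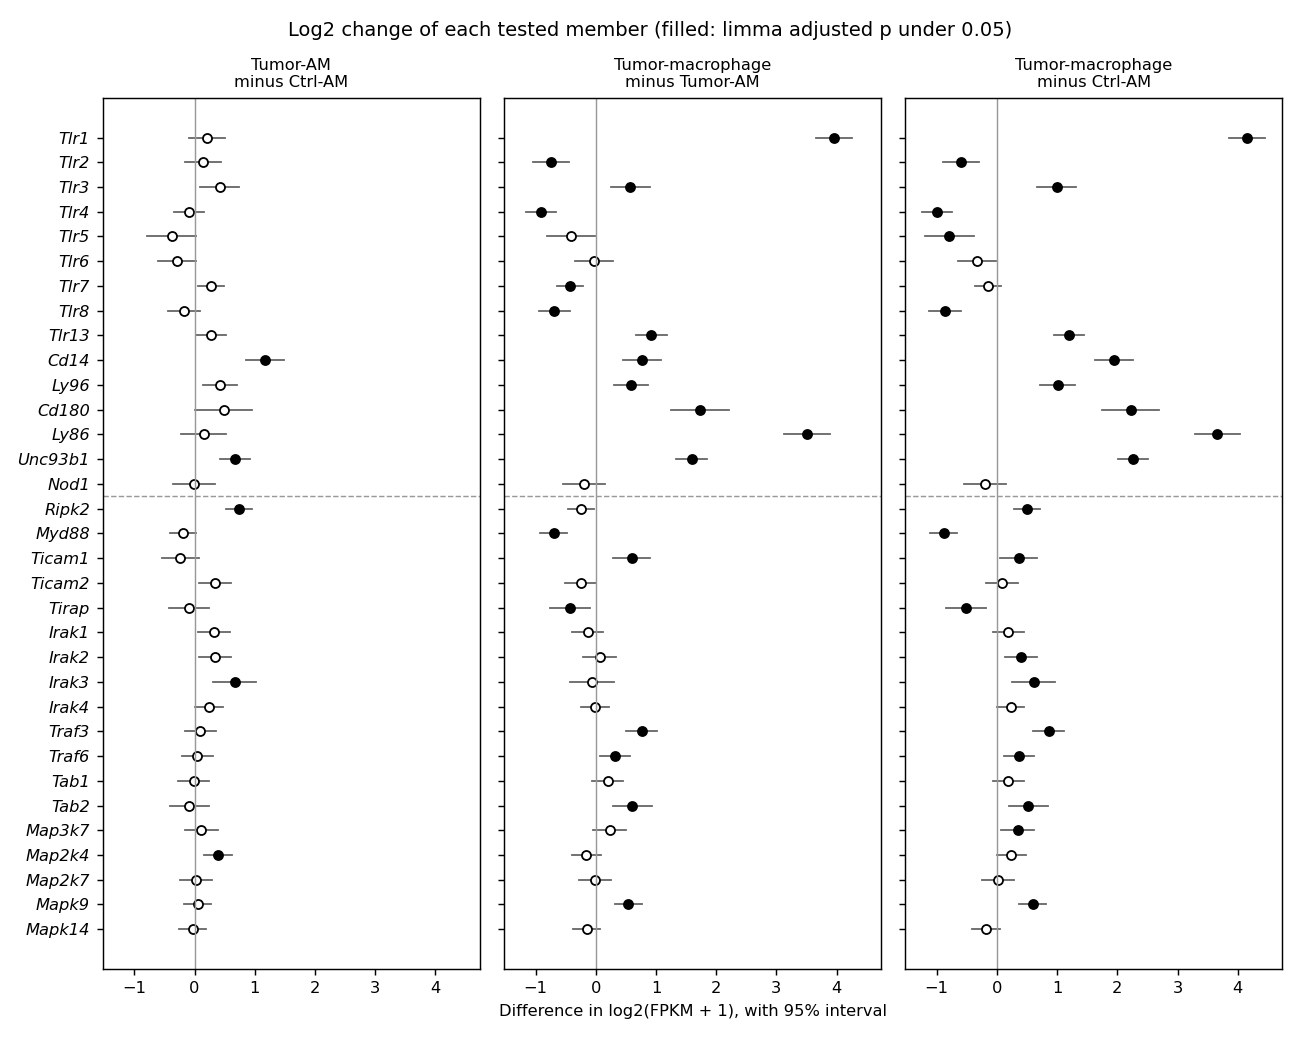
Difference in log2(FPKM + 1) of each of the 33 tested members in the 3 comparisons, with bars for the 95% confidence interval from limma, filled points for an adjusted p under 0.05 and a dashed line between receptors (above) and adaptors and kinases (below). In Tumor-AM minus Ctrl-AM 5 points are filled, all to the right of 0, and Tlr1 and Ly86 lie farthest right in the comparisons with Tumor-macrophage, at log2 changes of 3.95 and 3.51 against Tumor-AM.

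Cd14 and Unc93b1 passed the test in all 3 comparisons. Another 8 members passed it in none: the receptors Tlr6 and Nod1, the adaptor Ticam2, and Irak1, Irak4, Tab1, Map2k7 and Mapk14. The share of all genes with either pattern was not counted, so neither count can be set against a background. In TPM, Tlr6, Nod1 and Mapk14 passed as lower in Tumor-macrophage against Ctrl-AM, at -0.52, -0.42 and -0.41 on the log2 scale, and Ticam2 as lower against Tumor-AM. Groups did not overlap for 14 of 33 members between Tumor-AM and Ctrl-AM (32.3% of all genes), for 20 between Tumor-macrophage and Tumor-AM (55.3%) and for 26 between Tumor-macrophage and Ctrl-AM (62.3%).

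Depth estimated from the low values was 10200000 to 13000000 reads a sample, and the sum of FPKM ran from 635560 to 785745. The populations carried their labelled markers. A sum of 11 AM markers lay at 23600 to 40500 FPKM in the AM groups and at 1240 to 1500 in Tumor-macrophage, and Siglecf, the gene of the sorted protein, fell from 171.5 ± 10.3 (SD, n = 3) in Tumor-AM to 0.651 ± 0.19 in Tumor-macrophage. A sum of 10 TAM and monocyte markers was 75.3 to 99.1 in Ctrl-AM, 205 to 291 in Tumor-AM and 13900 to 14300 in Tumor-macrophage. B cell markers summed to 12.7 to 16.9, 3.15 to 7.49 and 31.5 to 58.3 FPKM in the same order, T and NK cell markers to 3.53 to 6.35, 4.79 to 11.7 and 11.4 to 21.6, and dendritic cell markers to 6.62 to 10.0, 3.09 to 4.57 and 11.0 to 23.0. In such bulk samples, fewer cells of a type and less RNA per cell cannot be told apart.

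Among the TLRs of the cell surface, Tlr1 was nearly absent from AMs and present in TAMs, while Tlr2 and Tlr4 were lower in TAMs than in AMs. Tlr1, whose product pairs with TLR2 to bind triacylated lipopeptides, was at 0, 0.284 and 0.199 FPKM in Ctrl-AM, at 0.447, 0.286 and 0.262 in Tumor-AM and at 21.5, 18.9 and 18.6 in Tumor-macrophage. The AM groups overlapped, and every Tumor-macrophage sample lay far above them. On the scale of estimated reads this meant 0, 11 and 8 reads in Ctrl-AM, then 14, 10 and 10 in Tumor-AM, and 588 to 663 in Tumor-macrophage. Since the AM values rest on so few reads, no fold is given. The log2 change in limma was 3.95 against Tumor-AM (SE 0.13, adjusted p = 3.9e-09) and 4.16 against Ctrl-AM (adjusted p = 2e-09). Tlr1 reached FPKM 1 in the Tumor-macrophage samples only. It thus entered the test through the group where it was high, and these p-values are not independent of that filter.

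Tlr6, the other partner of TLR2 and the receptor subunit for diacylated lipopeptides, did not change in step with Tlr1. It was at 4.22, 4.06 and 4.24 FPKM in Ctrl-AM, at 4.19, 2.83 and 2.75 in Tumor-AM and at 3.15, 2.82 and 3.38 in Tumor-macrophage. Tumor-AM overlapped both other groups, and Tumor-macrophage lay below Ctrl-AM without overlap. No comparison passed the test, with a log2 change of -0.03 between Tumor-macrophage and Tumor-AM (95% interval -0.35 to 0.28) and of -0.33 between Tumor-macrophage and Ctrl-AM (95% interval -0.64 to -0.02, adjusted p = 0.0697). The latter passed in 4 of 18 alternatives, with adjusted p from 0.0109 to 0.172, among them TPM and the fit without Tumor-AM 1. Of the stretches of 75 bases in the Tlr1 transcript, 11.5% also occur in Tlr6, and 9.44% of those of Tlr6 in Tlr1, so a part of their reads could be placed on either gene and was not tested.

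Tlr1 (chromosome 5, 64924679 to 64933563) and Tlr6 (64952031 to 64960097) lie 18467 bases apart on the minus strand of mm10. The sequences before their RefSeq start sites are shown since these neighbours differed in level between populations. Each window was 250 bases long and is printed 5′ to 3′ on the strand of the gene without the bases that GENCODE places in an exon, which left 245 bases for Tlr1 (chr5:64933564-64933808, GRCm38.p6) and 201 for Tlr6 (chr5:64960098-64960298).
Tlr1: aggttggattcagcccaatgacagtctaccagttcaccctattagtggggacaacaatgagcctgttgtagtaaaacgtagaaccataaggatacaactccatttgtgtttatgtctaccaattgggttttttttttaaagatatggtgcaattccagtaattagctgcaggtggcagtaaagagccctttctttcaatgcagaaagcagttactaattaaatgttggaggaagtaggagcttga
Tlr6: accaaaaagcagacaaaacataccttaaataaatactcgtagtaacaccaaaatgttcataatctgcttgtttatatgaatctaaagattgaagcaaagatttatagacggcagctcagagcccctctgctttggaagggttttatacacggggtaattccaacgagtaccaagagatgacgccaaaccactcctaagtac
On both strands of the whole windows, neither held the AP-1 letters TGANTCA, the interferon-stimulated response element (ISRE) GAAANNGAAA, the ETS-IRF composite element (EICE) GGAANNGAAA or the kappaB motif, where N is any base. ISRE and EICE differ at 1 position, so the same letters cannot match both. Of 32851 mouse promoters, 6.75% held the AP-1 letters, 2.98% the ISRE, 2.3% the EICE and 3.9% the kappaB motif. A sequence was found for 28 of the 36 members, of which 1 held an AP-1 match (Tlr9), 1 an ISRE match (Myd88), 0 an EICE match and 4 a kappaB match (Map3k7, Tlr2, Tlr3 and Traf3). No sequence was shown for Unc93b1, Ticam2, Tlr4, Cd14, Ly96, Tlr7, Tab1 and Ripk2.

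Tlr2, the shared subunit of the lipopeptide receptors, was the most abundant TLR in each of the 9 samples. It reached 434, 461 and 471 FPKM in Ctrl-AM, with 590, 439 and 492 in Tumor-AM and with 362, 251 and 300.1 in Tumor-macrophage. Ctrl-AM and Tumor-AM overlapped, and Tumor-macrophage lay below both. The log2 change was 0.15 (SE 0.14, adjusted p = 0.57) between Tumor-AM and Ctrl-AM and, for Tumor-macrophage against Tumor-AM, -0.74 (SE 0.14, adjusted p = 0.00104). The bases before its start outside annotated exons, 91 on the minus strand at chr3:83841768-83841858, are shown since the window held a pair of overlapping kappaB matches, printed in capitals, that begin 173 and 172 bases before the RefSeq start.
Tlr2: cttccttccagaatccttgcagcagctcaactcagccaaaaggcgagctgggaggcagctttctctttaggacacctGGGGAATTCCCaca

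Tlr4, the receptor for lipopolysaccharide, ranked the second among TLRs in every AM sample. It was at 28.3, 34.4 and 32.0 FPKM in Ctrl-AM, at 30.2, 33.1 and 25.7 in Tumor-AM and at 14.8, 16.5 and 14.55 in Tumor-macrophage. All TAM samples were lower than the AM samples, whose groups overlapped. Tumor-AM and Ctrl-AM differed by -0.09 on the log2 scale (95% interval -0.33 to 0.16, adjusted p = 0.684), and Tumor-macrophage lay 0.515-fold relative to Tumor-AM (log2 change -0.91, SE 0.11, adjusted p = 5.37e-05). Tlr5, the flagellin receptor, was at 3.11 ± 0.324 (SD, n = 3) in Ctrl-AM, at 2.21 ± 0.648 in Tumor-AM and at 1.40 ± 0.411 in Tumor-macrophage, and passed the test between Tumor-macrophage and Ctrl-AM only (log2 change -0.79, adjusted p = 0.00377). Against Tumor-AM its value was -0.41 (adjusted p = 0.0855), and adjusted p ran from 0.0174 to 0.26 over the alternatives.

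All 4 tested TLRs of the endosome changed between Tumor-macrophage and Tumor-AM, 2 higher and 2 lower. Over all genes, 24.2% were called higher and 24.4% lower in this comparison. Tlr13, the receptor for bacterial ribosomal RNA, was at 14.65, 16.7 and 12.4 FPKM in Ctrl-AM, at 16.2, 17.95 and 19.3 in Tumor-AM and at 33.3, 37.2 and 33.25 in Tumor-macrophage. The TAM samples lay above the AM samples, and Ctrl-AM overlapped with Tumor-AM. Its log2 change against Tumor-AM was 0.92 (SE 0.11, adjusted p = 6.24e-05), and it was the TLR with the second-highest level in all 3 TAM samples. Tlr3, the receptor for double-stranded RNA, was at 1.41 ± 0.283 (SD, n = 3) in Ctrl-AM, at 2.21 ± 0.264 in Tumor-AM and at 3.81 ± 0.692 in Tumor-macrophage, without overlap between groups. It rose by 0.58 (SE 0.15, adjusted p = 0.0077) in Tumor-macrophage against Tumor-AM, while its 0.42 between Tumor-AM and Ctrl-AM missed the threshold (adjusted p = 0.106).

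Tlr7 and Tlr8, neighbours on chromosome X that lie 40599 bases apart, were lower in TAMs. Tlr7, which senses single-stranded RNA, was at 17.5, 20.8 and 19.7 FPKM in Ctrl-AM, at 21.9, 24.55 and 24.35 in Tumor-AM and at 17.95, 15.65 and 18.3 in Tumor-macrophage. Tumor-AM lay above both other groups without overlap. The log2 change was -0.43 (SE 0.10, adjusted p = 0.00404) for Tumor-macrophage against Tumor-AM, 0.28 (adjusted p = 0.103) for Tumor-AM against Ctrl-AM and -0.15 (adjusted p = 0.218) for Tumor-macrophage against Ctrl-AM, the last of which was -0.37 in TPM (adjusted p = 0.00505). Tlr8, its close relative, was at 23.4, 30.2 and 23.5 FPKM in Ctrl-AM, at 23.3, 22.1 and 22.0 in Tumor-AM and at 15.6, 12.2 and 13.2 in Tumor-macrophage. It fell by 0.69 (SE 0.12, adjusted p = 0.000663) against Tumor-AM and by 0.86 (adjusted p = 0.000112) against Ctrl-AM.

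Tlr9, the receptor for unmethylated DNA, had 0, 0 and 0.0656 FPKM in Ctrl-AM, at 0, 0.0244 and 0.0224 in Tumor-AM and at 0.771, 0.8845 and 0.736 in Tumor-macrophage. These values stand for an estimated 0 to 3 reads in the AM samples and 27 to 32 in the TAM samples, so no fold is given. B cells express Tlr9, Cd180, Tlr1 and Ly86 as well. All 4 tested B cell markers were higher in Tumor-macrophage than in either AM group, with Cd79a at 17.1 ± 5.7 (SD, n = 3) and Cd79b at 18.4 ± 4.14 against 2.65 ± 1.02 and 1.40 ± 0.748 in Tumor-AM. Pax5, the defining transcription factor of B cells, was at 0 to 0.18 in all samples, and the part of these markers in the 4 results was not tested.

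Across all 9 tested TLRs, log2 changes between Tumor-AM and Ctrl-AM ran from -0.38 to 0.42, and the lowest adjusted p was 0.103. Their 95% intervals reached from -0.78 to 0.74, so changes of that size were within the error at this depth and n. At an unadjusted p under 0.05, 3 of the 9 were called (Tlr3, Tlr7 and Tlr13), against 24.6% of all genes.

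**Figure D2:**
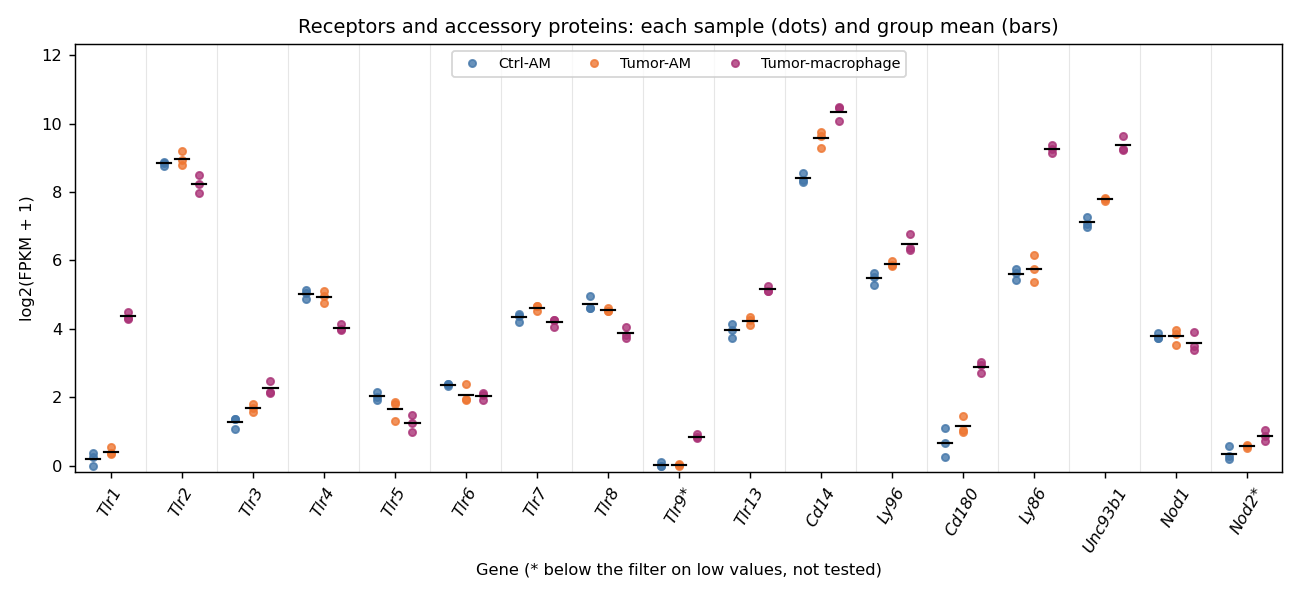
Level of the 17 receptors and accessory proteins as log2(FPKM + 1), with 1 dot per sample and a bar for the group mean, for Ctrl-AM, Tumor-AM and Tumor-macrophage (3 samples each). Tlr2 is the highest TLR in all groups, Tlr1, Cd180 and Ly86 separate Tumor-macrophage from both AM groups, and Cd14 rises in steps from 338 over 765 to 1305 FPKM.

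The accessory proteins of the TLRs moved in 1 direction: all 5 were higher in Tumor-macrophage than in each AM group, and 2 of 5 passed as higher in Tumor-AM against Ctrl-AM. The share of all genes called higher in Tumor-macrophage was 24.2% against Tumor-AM and 27.7% against Ctrl-AM. For Tumor-AM against Ctrl-AM it was 7.11%. Cd14, the co-receptor that hands lipopolysaccharide to TLR4, was at 313, 375 and 326 FPKM in Ctrl-AM, at 798, 629 and 869 in Tumor-AM and at 1428, 1074 and 1412 in Tumor-macrophage. No group overlapped another. The mean of Tumor-AM was 2.26-fold that of Ctrl-AM (log2 change 1.17, SE 0.14, adjusted p = 0.00101) and 1.71-fold higher in Tumor-macrophage than in Tumor-AM (log2 change 0.77, SE 0.14, adjusted p = 0.00107). Ly96, which encodes the lipopolysaccharide-binding subunit MD-2, was at 44.7, 48.7 and 37.6 in Ctrl-AM, at 56.25, 62.0 and 57.3 in Tumor-AM and at 78.6, 81.3 and 107.5 in Tumor-macrophage. These groups did not overlap either. Its log2 change was 0.59 in Tumor-macrophage against Tumor-AM (SE 0.13, adjusted p = 0.00321), whereas the 0.42 between Tumor-AM and Ctrl-AM did not pass (adjusted p = 0.0666, and 0.0299 to 0.219 over the alternatives).

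Unc93b1, the chaperone that brings nucleic acid-sensing TLRs to the endosome, was at 126, 153 and 133.5 FPKM in Ctrl-AM, at 211, 224 and 222 in Tumor-AM and at 795, 593 and 615 in Tumor-macrophage. The 3 groups were again separate. It rose 1.59-fold in Tumor-AM against Ctrl-AM (log2 change 0.67, SE 0.11, adjusted p = 0.00494) and 3.05-fold in Tumor-macrophage against Tumor-AM (log2 change 1.59, SE 0.11, adjusted p = 8.59e-07). TAM and monocyte markers moved with these rises in Tumor-AM, where 8 of 10 passed the test as higher, and their part in the rises was not tested. Of the marker sum in Tumor-AM, 120 to 147 FPKM were those of Fn1, which was lower in Tumor-macrophage (32.3 to 40.3).

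Cd180 and Ly86 encode RP105 and its partner MD-1, a TLR-like pair that resembles TLR4 and MD-2. Ly86 was at 41.6, 48.3 and 52.7 FPKM in Ctrl-AM, at 69.7, 40.1 and 52.45 in Tumor-AM and at 664, 561 and 609 in Tumor-macrophage. Ctrl-AM and Tumor-AM overlapped, and the TAM samples were 11.3-fold above Tumor-AM on average (log2 change 3.51, SE 0.17, adjusted p = 5e-08). Cd180 was far lower, at 0.192, 1.145 and 0.573 in Ctrl-AM, at 1.71, 1.05 and 0.965 in Tumor-AM and at 5.47, 7.14 and 6.69 in Tumor-macrophage. Its log2 change was 1.74 (SE 0.22, adjusted p = 6.43e-05) against Tumor-AM, and the 0.48 between Tumor-AM and Ctrl-AM did not pass (adjusted p = 0.2).

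Nod1, the sensor of meso-diaminopimelic acid, passed in no comparison of FPKM. It was at 12.3, 13.8 and 12.4 FPKM in Ctrl-AM, at 10.49, 14.7 and 13.5 in Tumor-AM and at 14.0, 10.2 and 9.37 in Tumor-macrophage, with overlap between all groups. The difference between Tumor-AM and Ctrl-AM was -0.01 (95% interval -0.35 to 0.34). Nod2, the sensor of muramyl dipeptide, was low throughout, at 0.148 to 0.485 in Ctrl-AM, 0.431 to 0.529 in Tumor-AM and 0.653 to 1.06 in Tumor-macrophage. Without a filter on low values, its log2 change between Tumor-macrophage and Ctrl-AM was 0.52 (SE 0.11, adjusted p = 0.00745).

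Ripk2, the kinase both NOD receptors use, rose in Tumor-AM while neither receptor passed. It was at 11.4, 10.6 and 11.8 FPKM in Ctrl-AM, at 20.2, 17.9 and 20.3 in Tumor-AM and at 18.2, 15.3 and 15.5 in Tumor-macrophage. Ctrl-AM lay below both tumor groups, which overlapped each other. The rise over Ctrl-AM was 1.73-fold in Tumor-AM (log2 change 0.74, SE 0.10, adjusted p = 0.00151) and 1.45-fold in Tumor-macrophage (log2 change 0.50, SE 0.10, adjusted p = 0.00133).

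Of the adaptors with a TIR domain, Myd88 and Tirap were lower and Ticam1 was higher in TAMs. Myd88 was the most abundant of the adaptors and kinases in every sample, at 118, 129 and 142 FPKM in Ctrl-AM, at 118, 115 and 107 in Tumor-AM and at 71.3, 76.95 and 61.2 in Tumor-macrophage. The TAM samples lay below both AM groups, which overlapped. The log2 change was -0.19 (95% interval -0.41 to 0.03, adjusted p = 0.278) between Tumor-AM and Ctrl-AM and, for Tumor-macrophage against Tumor-AM, -0.70 (SE 0.10, adjusted p = 0.00016). Its exons overlap those of Acaa1a on the other strand, with 6.29% of its 75-base stretches shared, and without strand these reads cannot be told apart. Its window before the start is shown because it was the only member's window with an ISRE match, printed in capitals, which begins 40 bases before the RefSeq start (227 bases outside exons, chr9:119340042-119340268, minus strand).
Myd88: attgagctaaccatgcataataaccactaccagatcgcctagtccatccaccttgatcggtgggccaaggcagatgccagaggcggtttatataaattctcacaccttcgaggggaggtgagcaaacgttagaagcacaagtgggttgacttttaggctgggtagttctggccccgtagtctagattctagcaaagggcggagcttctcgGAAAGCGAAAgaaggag

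Ticam1, which encodes TRIF, was at 7.33, 6.09 and 5.825 FPKM in Ctrl-AM, at 5.04, 6.54 and 4.37 in Tumor-AM and at 8.905, 8.17 and 8.34 in Tumor-macrophage. The TAM samples lay above both AM groups, which overlapped. The log2 change was 0.60 (SE 0.14, adjusted p = 0.00449) against Tumor-AM, while the 0.36 against Ctrl-AM (adjusted p = 0.0488) lost the threshold in 12 of 19 alternatives, including without Ctrl-AM 2, Ctrl-AM 3, Tumor-AM 1 or any of the Tumor-macrophage samples. Tirap, the bridging adaptor for MyD88, was at 5.05 ± 0.861 (SD, n = 3), 4.71 ± 0.894 and 3.21 ± 0.366 in Ctrl-AM, Tumor-AM and Tumor-macrophage. It fell by 0.43 against Tumor-AM (SE 0.15, adjusted p = 0.0348), a call lost in 5 of 18 alternatives, among them those without Tumor-AM 2, Tumor-macrophage 1 or Tumor-macrophage 2, and by 0.52 against Ctrl-AM (adjusted p = 0.0134), which was lost without Ctrl-AM 2 (highest adjusted p 0.0587). Ticam2, which encodes TRAM, was at 14.6 ± 0.226, 18.8 ± 2.96 and 15.6 ± 1.64 and passed in no comparison, and 18.5% of its 75-base stretches are shared with Tmed7, which overlaps it.

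The IRAK kinases, which MyD88 assembles, showed positive log2 changes between Tumor-AM and Ctrl-AM from 0.24 to 0.66, of which only that of Irak3 passed after adjustment. At an unadjusted p under 0.05, 4 of 4 were called against 24.6% of all genes. Irak3 encodes IRAK-M, a family member known as an inhibitor of the pathway in macrophages. It was at 8.52, 9.02 and 9.62 FPKM in Ctrl-AM, at 16.1, 12.45 and 16.6 in Tumor-AM and at 16, 10.8 and 16.9 in Tumor-macrophage. Ctrl-AM lay below both tumor groups, which overlapped each other. The log2 change was 0.66 (SE 0.16, adjusted p = 0.0291) for Tumor-AM against Ctrl-AM and 0.61 (SE 0.16, adjusted p = 0.00909) for Tumor-macrophage against Ctrl-AM. The former was lost in 8 of 19 alternatives, with adjusted p from 0.00715 to 0.102. Among them were TPM, no filter on low values, and the fits without any 1 of the Ctrl-AM samples, Tumor-AM 1 or Tumor-AM 3. The change for Tumor-macrophage against Ctrl-AM was also lost in TPM (log2 change 0.39, adjusted p = 0.0547) and kept without each single sample.

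For Irak1, Irak2 and Irak4, Tumor-AM lay above Ctrl-AM without overlap and without passing the test. Irak2, which sustains signalling, was at 34.9, 35.0 and 32.2 FPKM in Ctrl-AM, at 44.9, 37.7 and 47.9 in Tumor-AM and at 53.3, 39.2 and 44.5 in Tumor-macrophage. Its 0.34 for Tumor-AM missed the threshold (adjusted p = 0.107), and its 0.40 for Tumor-macrophage against Ctrl-AM passed (adjusted p = 0.0157). That call was lost in TPM (log2 change 0.17, adjusted p = 0.233) and without Ctrl-AM 3 or Tumor-macrophage 1. Irak1, a kinase of the same complex, was at 36.3 ± 1.48 (SD, n = 3), 45.8 ± 3.49 and 42.0 ± 7.35, and Irak4, the kinase that starts the cascade, at 13.7 ± 1.33, 16.4 ± 1.05 and 16.2 ± 1.69. The log2 changes of Irak1 and Irak4 between Tumor-AM and Ctrl-AM were 0.33 (adjusted p = 0.114) and 0.24 (adjusted p = 0.183). None of the 4 IRAKs passed in limma for Tumor-macrophage against Tumor-AM, and 0 had an unadjusted p under 0.05, against 54.5% of all genes.

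Of the TRAF and TAK1 complex genes, 0 of 5 passed in limma for Tumor-AM against Ctrl-AM (also 0 at an unadjusted p under 0.05, against 24.6% of all genes). In Tumor-macrophage against Tumor-AM 3 of 5 passed, all higher, where 48.6% of all genes were called (24.2% higher). Traf3, a ubiquitin ligase of the TRIF and interferon arm, was at 3.37, 3.15 and 2.65 FPKM in Ctrl-AM, at 3.195, 3.44 and 3.33 in Tumor-AM and at 7.03, 6.01 and 5.98 in Tumor-macrophage. Ctrl-AM and Tumor-AM overlapped, and the TAM samples were 1.91-fold above Tumor-AM (log2 change 0.76, SE 0.12, adjusted p = 0.000277). Tab2, which links TAK1 to ubiquitin chains, was at 3.72 ± 0.291 (SD, n = 3), 3.45 ± 0.323 and 5.83 ± 1.24 in Ctrl-AM, Tumor-AM and Tumor-macrophage, a log2 change of 0.60 against Tumor-AM (SE 0.15, adjusted p = 0.00586). Its 0.52 against Ctrl-AM (adjusted p = 0.0117) was lost in TPM (0.32, adjusted p = 0.0629). Traf6 was at 6.78 ± 0.604, 7.05 ± 0.781 and 9.04 ± 0.773, and its change of 0.32 against Tumor-AM (adjusted p = 0.04) was lost in 11 of 19 alternatives, with adjusted p up to 0.135. Those included the fits without Ctrl-AM 2, Tumor-AM 1, Tumor-AM 3, Tumor-macrophage 1 or Tumor-macrophage 3.

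Map3k7, the gene of TAK1, was at 6.255, 6.59 and 5.88 FPKM in Ctrl-AM, at 7.18, 6.94 and 6.39 in Tumor-AM and at 9.60, 8.425 and 6.76 in Tumor-macrophage. Neighbouring groups overlapped, and only the TAM samples were apart from Ctrl-AM. The log2 change between Tumor-AM and Ctrl-AM was 0.11 (95% interval -0.16 to 0.39), and the 0.34 between Tumor-macrophage and Ctrl-AM (adjusted p = 0.0379) was lost in 10 of 19 alternatives, with adjusted p up to 0.383. Those included the fits without any 1 of the Ctrl-AM samples, Tumor-macrophage 1 or Tumor-macrophage 2. Tab1, the other TAK1-binding protein of the set, was at 3.22 ± 0.386 (SD, n = 3), 3.18 ± 0.224 and 3.79 ± 0.226 and passed in no comparison.

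Of the MAP kinase kinases and MAP kinases, Map2k4 rose in Tumor-AM and Mapk9 in Tumor-macrophage. Map2k4 was at 19.2, 21.5 and 19.8 FPKM in Ctrl-AM, at 26.4, 30.4 and 23.8 in Tumor-AM and at 23.9, 26.4 and 21.7 in Tumor-macrophage. Ctrl-AM lay below both tumor groups, with Tumor-macrophage at the closest by 21.67 against 21.51 FPKM. The log2 change of 0.24 between Tumor-macrophage and Ctrl-AM did not pass (adjusted p = 0.0874, and 0.0427 to 0.948 over the alternatives). The rise in Tumor-AM was 1.33-fold (log2 change 0.39, SE 0.11, adjusted p = 0.0467). It was lost in 11 of 19 alternatives, with adjusted p from 0.0262 to 0.169. Among them were TPM and the fits without any 1 of the Ctrl-AM samples, Tumor-AM 1, Tumor-AM 2 or Tumor-macrophage 1. Map2k7, the other JNK kinase, was at 5.415 ± 0.472 (SD, n = 3), 5.53 ± 0.172 and 5.49 ± 0.811, with 36.9% of its stretches shared with the overlapping gene model Gm49320.

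Mapk9, which encodes JNK2, was at 7.975, 8.01 and 8.496 FPKM in Ctrl-AM, at 9.03, 8.85 and 7.69 in Tumor-AM and at 14.2, 12.0 and 12.3 in Tumor-macrophage. Values of the AM groups overlapped, and the TAM samples lay 1.51-fold above Tumor-AM (log2 change 0.54, SE 0.10, adjusted p = 0.00125). Mapk8, which encodes JNK1, was at 0.88, 0.939 and 0.888 in Ctrl-AM, at 0.826, 0.848 and 1.26 in Tumor-AM and at 0.874, 0.6465 and 0.852 in Tumor-macrophage. Without a filter it did not pass in any comparison (adjusted p 0.424 to 0.873). Mapk14, which encodes p38 alpha, was at 52.6 ± 4.5 (SD, n = 3), 51.4 ± 0.741 and 46.45 ± 6.29, and its 95% interval between Tumor-AM and Ctrl-AM was -0.26 to 0.20.

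**Figure D3:**
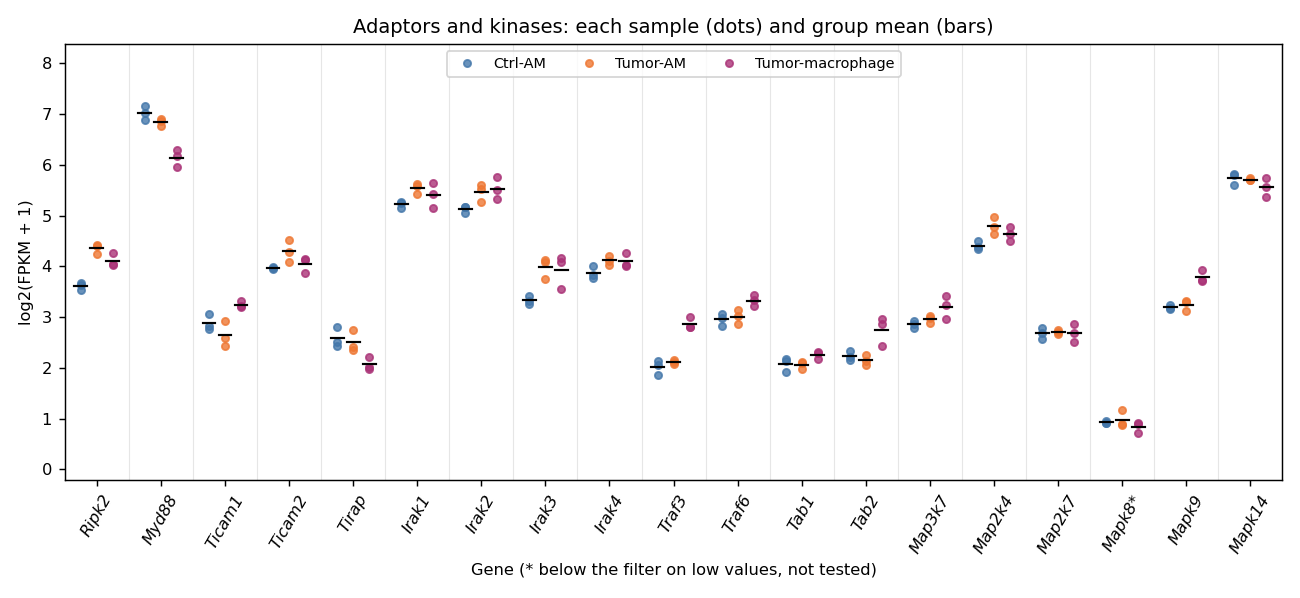
Level of the 19 adaptors and kinases as log2(FPKM + 1), with 1 dot per sample and a bar for the group mean, for Ctrl-AM, Tumor-AM and Tumor-macrophage (3 samples each). Myd88 is highest and lower in Tumor-macrophage (61.2 to 76.95 FPKM) than in the AM groups (107 to 142 FPKM). Ripk2 and Irak3 are lower in Ctrl-AM than in both tumor groups, and Map2k4 passed as lower in Ctrl-AM only against Tumor-AM.

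Taken as the route from TLR4 to JNK, 15 of the members (Tlr4, Cd14, Ly96, Myd88, Tirap, Irak1, Irak4, Traf6, Tab1, Tab2, Map3k7, Map2k4, Map2k7, Mapk8 and Mapk9) gave 14 that were tested. Between Tumor-AM and Ctrl-AM, 2 of 14 passed, Cd14 and Map2k4, both higher, against 10.3% of all genes. For the other 12, the 95% intervals lay between -0.42 and 0.70 on the log2 scale. Between Tumor-macrophage and Tumor-AM, 8 of 14 passed, of which Cd14, Ly96, Traf6, Tab2 and Mapk9 were higher and Tlr4, Myd88 and Tirap lower, against 48.6% of all genes. These are RNA levels, and protein, phosphorylation and kinase activity were not measured in these files.

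Ratios of paired genes within a sample set partners side by side, and they do not depend on the scaling of the sample. For Cd14 to Tlr4 the ratio was 11.1, 10.9 and 10.2 in Ctrl-AM, with 26.4, 19.0 and 33.8 in Tumor-AM and with 96.2, 65.1 and 97.0 in Tumor-macrophage. The groups did not overlap, and the mean ratio of Tumor-AM was 2.46-fold that of Ctrl-AM and the mean of Tumor-macrophage 3.26-fold that of Tumor-AM. Ly96 to Tlr4 went from 1.39 ± 0.206 (SD, n = 3) over 1.99 ± 0.207 to 5.87 ± 1.33, and Tlr13 to Tlr8 from 0.569 ± 0.0519 over 0.793 ± 0.0918 to 2.57 ± 0.455. The ratio of Ticam1 to Myd88 went from 0.0501 ± 0.0109 over 0.0467 ± 0.0088 to 0.122 ± 0.0152.

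The remaining pairs ranged widely in size. Mapk9 to Mapk14 was 0.156 ± 0.0199 (SD, n = 3), 0.166 ± 0.0135 and 0.278 ± 0.0188, and Irak3 to Irak4, the inhibitory against the initiating kinase, was 0.664 ± 0.0663, 0.915 ± 0.0926 and 0.896 ± 0.165. Tlr6 to Tlr2 was 0.00918 ± 0.000491, 0.00638 ± 0.000763 and 0.0104 ± 0.00146, and Tlr1 to Tlr2 was 0.000346 ± 0.000315, 0.000647 ± 0.000112 and 0.0654 ± 0.00844. Ly86 to Cd180 varied from 42.2 to 216 within Ctrl-AM, where Cd180 lay between 0.192 and 1.145 FPKM, and was 97.0 ± 22.1 in Tumor-macrophage. With 3 samples against 3, the two-sided exact permutation test cannot go below p = 0.1, which 19 of 27 ratio comparisons reached (Benjamini-Hochberg adjusted p = 0.142), so none passed.

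**Figure D4:**
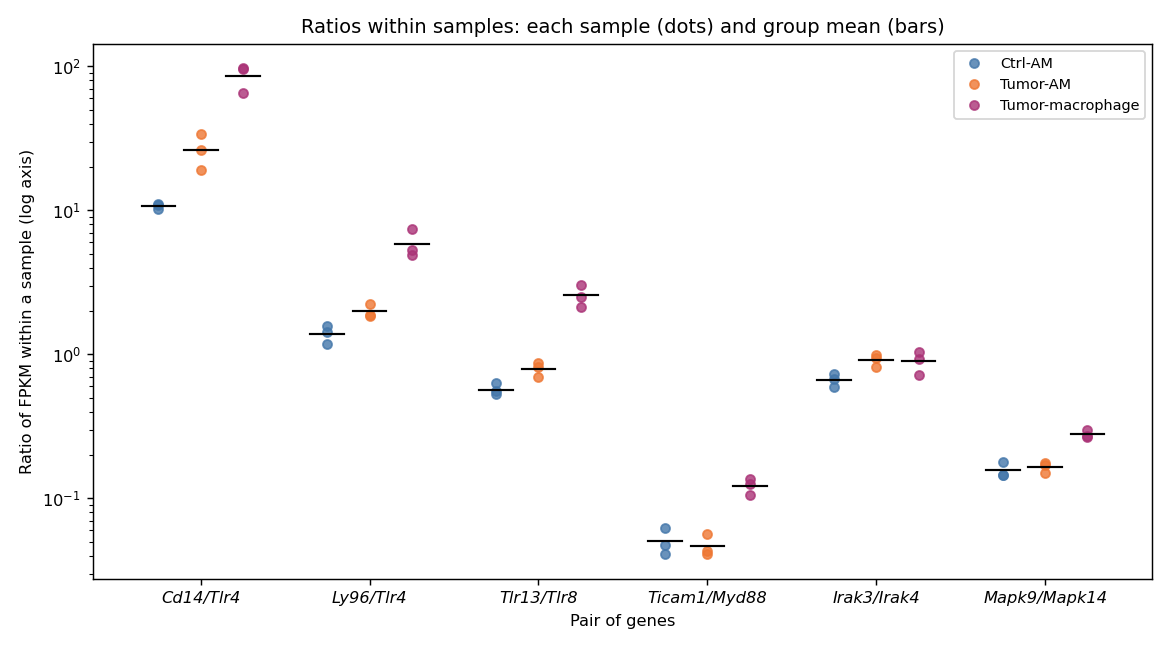
Ratio of FPKM within each sample for 6 of the 9 gene pairs on a log axis, with 1 dot per sample and a bar for the group mean, for Ctrl-AM, Tumor-AM and Tumor-macrophage (3 samples each). Cd14/Tlr4 climbs from a mean of 10.7 over 26.4 to 86.1, and Irak3/Irak4 stays between 0.594 and 1.04.

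Other genes of the same pathways were taken from 5 lists with 66 genes, of which 58 were tested. Of these, 12 rose and 0 fell between Tumor-AM and Ctrl-AM (20.7%, against 10.3% of all genes), 19 rose and 13 fell between Tumor-macrophage and Tumor-AM (55.2%, against 48.6%), and 24 rose and 13 fell between Tumor-macrophage and Ctrl-AM (63.8%, against 54.8%). The medians over the 58 genes were 0.14, 0.03 and 0.19 on the log2 scale.

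Among chaperones, transporters and proteases of endosomal TLRs, 4 of 11 rose in Tumor-AM against Ctrl-AM, where 7.11% of all genes were called higher. They were the lysosomal proteases Lgmn, Ctsl, Ctsb and Ctss. Lgmn, asparagine endopeptidase, was at 160, 146 and 130.5 FPKM in Ctrl-AM, at 209.5, 234 and 252 in Tumor-AM and at 1277, 1410 and 1342 in Tumor-macrophage, without overlap. Its log2 change was 0.67 (SE 0.09, adjusted p = 0.00215) in Tumor-AM against Ctrl-AM and 2.53 (SE 0.09, adjusted p = 7.07e-09) in Tumor-macrophage against Tumor-AM. Ctsl and Ctsb rose by 0.62 and 0.56 in the former comparison. In Tumor-macrophage against Tumor-AM 6 of 11 were higher and 1 lower, a share of 63.6% against 48.6% of all genes. The lower one was the peptide transporter Slc15a3 (log2 change -0.48, adjusted p = 0.00672).

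Tlr12, a receptor of the same list that binds protozoan profilin, was at 0, 0 and 0.193 FPKM in Ctrl-AM, at 0.0583, 0.0538 and 0.123 in Tumor-AM and at 16.3, 12.2 and 9.34 in Tumor-macrophage. The TAM samples were far above the AM samples (log2 change against Tumor-AM 3.62, adjusted p = 6.15e-08). Tlr12 reached FPKM 1 in the TAM samples only. It thus entered the test through the group where it was high, and its p-value is not independent of that filter. Tlr11, its relative, was not tested and was listed at 0 in all Ctrl-AM samples and at 1.08, 0.263 and 0.668 in Tumor-macrophage.

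Among negative regulators, 3 of 12 rose in Tumor-AM against Ctrl-AM, where 7.11% of all genes were called higher. Tnfaip3, which encodes the ubiquitin-editing enzyme A20, was at 29.7, 35.5 and 28.9 FPKM in Ctrl-AM, at 86.8, 62.7 and 69.7 in Tumor-AM and at 87.3, 56.4 and 87.2 in Tumor-macrophage. Ctrl-AM lay below both tumor groups (log2 change 1.19, SE 0.18, adjusted p = 0.00271 for Tumor-AM). Tnip1, a partner of A20, and Dusp10, a phosphatase of JNK and p38, rose by 0.67 (adjusted p = 0.0302) and 0.57 (adjusted p = 0.0134). In Tumor-macrophage against Tumor-AM 4 were higher and 2 lower, a share of 50% that was near the 48.6% of all genes. They were led by Socs1 at 2.52 (adjusted p = 1.33e-06), an inhibitor of cytokine signalling, and Nlrx1 at -1.96 (adjusted p = 3.42e-08), a mitochondrial NOD-like receptor. Nlrc3, another NOD-like receptor, rose by 1.70 (adjusted p = 2.31e-05), but it entered the test through the Tumor-macrophage samples only.

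In the IKK, TBK1 and IRF arm, 3 of 13 rose in Tumor-AM against Ctrl-AM, where 7.11% of all genes were called higher. In Tumor-macrophage against Tumor-AM 5 rose and 2 fell, a share of 53.8% that was near the 48.6% of all genes. Ikbke, a kinase of the interferon arm, was at 1.41, 1.86 and 0.977 FPKM in Ctrl-AM, at 6.98, 3.86 and 4.95 in Tumor-AM and at 25.1, 25.3 and 26.1 in Tumor-macrophage. The 3 groups were separate, with log2 changes of 1.36 (SE 0.18, adjusted p = 0.00178) and 2.11 (SE 0.18, adjusted p = 4.38e-06). Irf7, the interferon regulatory factor downstream of TLR7 and TLR9, rose by 1.36 (adjusted p = 0.0121) and 2.75 (adjusted p = 1.18e-05) in the same comparisons, and Tank, a scaffold of TBK1, by 0.68 in the former. Irf5, which acts with MyD88, was 4.07-fold higher in Tumor-macrophage than in Tumor-AM (log2 change 1.99, adjusted p = 5.82e-08).

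The other genes of the MAP kinase module gave 0 of 13 calls between Tumor-AM and Ctrl-AM by limma (2 at an unadjusted p under 0.05, against 24.6% of all genes). In Tumor-macrophage against Tumor-AM 2 were higher and 8 lower, where 48.6% of all genes were called. Mapk3, which encodes ERK1, was at 129, 112 and 112.5 FPKM in Ctrl-AM, at 121, 105 and 126 in Tumor-AM and at 39.4, 43.3 and 46.9 in Tumor-macrophage. AM samples of both groups overlapped, and the TAM samples fell by 1.42 against Tumor-AM (SE 0.10, adjusted p = 6.26e-07). Map3k5, the stress kinase ASK1, fell by 1.34 (adjusted p = 2.54e-06), and Map3k8, a MEK kinase of the TLR pathway, by 0.78 (adjusted p = 0.000364).

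Of the AP-1 and ATF genes on which JNK and p38 act, 2 of 9 rose in Tumor-AM against Ctrl-AM, where 7.11% of all genes were called higher. Junb, an AP-1 subunit, was at 237, 311 and 285 FPKM in Ctrl-AM, at 663, 445 and 715 in Tumor-AM and at 614, 467 and 625 in Tumor-macrophage. Ctrl-AM lay below both tumor groups, which overlapped (log2 change 1.11, SE 0.18, adjusted p = 0.00434 for Tumor-AM). Fosb rose by 0.91 (SE 0.14, adjusted p = 0.0029). Jun and Jund, the other Jun genes, did not pass there and were higher in Tumor-macrophage, at 0.50 (adjusted p = 0.00614) and 0.51 (adjusted p = 0.00516) against Tumor-AM.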

How the data were processed

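Per the labels and the methods, libraries were made with SMART-Seq HT and Nextera from miRNeasy RNA and read as single 75-base reads. The authors mapped reads to mm10 with TopHat2 2.1.1, Bowtie2 and SAMtools and deposited FPKM from Cufflinks (Cuffdiff 2.2.1), 1 value per gene symbol and sample. The annotation, strand use and treatment of reads with several matches were not given in the sources used here, so values of overlapping or similar genes are uncertain.

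Here, log2(FPKM + 1) was fitted with limma 3.58.1 (R 4.3.3) with an intensity trend over all 9 samples. Genes entered where FPKM reached 1 in 3 or more samples. A gene high in 1 group only could enter through that group, as Tlr1, Tlr12 and Nlrc3 did through Tumor-macrophage. Tests were two-sided, with Benjamini-Hochberg adjustment over all genes tested in a comparison and a threshold of 0.05. Log2 changes are on this scale, where the added 1 shrinks differences between low values. FPKM are given with the SD over 3 samples and log2 changes with the SE of the fit, and the fit was tested on simulated data.

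Depth was estimated from 1924 genes with 1 transcript, as the read total at which low values became whole reads within 0.05 reads. This held for 37.9% to 48.0% of values at the best total and for 5.5% to 7.33% at others, so estimated reads are approximate, cover counting error only and entered no test. Gene positions and shared stretches came from GENCODE vM21 (GRCm38, the assembly of mm10), and promoters from RefSeq (GRCm38.p6). Ratios and plots were made with Python 3.11.15.

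The 36 members and all lists were chosen with earlier results of these data known. Every member could be named, and from each pathway list up to 3 genes past the threshold with the largest change in a comparison. Tlr11, Ctss and Slc15a3 were named after their values were seen. There were 19 alternatives, 9 of which left out 1 sample each.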

Additional observations from a re-analysis of the deposited data

How the results depend on the processing

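No result changed sign while called under the 19 alternatives. Requiring a 2-fold change left 1, 4 and 7 receptors and accessory proteins, 0, 0 and 0 adaptors and kinases, and 4, 13 and 17 other pathway genes in Tumor-AM against Ctrl-AM, Tumor-macrophage against Tumor-AM and Tumor-macrophage against Ctrl-AM. The 3 adaptors and kinases called in Tumor-AM against Ctrl-AM became 1 (Ripk2) with no filter on low values, which tests more genes, and 1 with TPM, and ranged from 1 to 3 when single samples were left out, with 1 without Ctrl-AM 1, Ctrl-AM 2, Ctrl-AM 3 or Tumor-AM 1. The 11 called in Tumor-macrophage against Ctrl-AM became 6 with TPM and ranged from 7 to 11 without single samples, with 7 without Ctrl-AM 3. The cause was not tested. TPM moved the median log2 change of all genes to -0.10 in Tumor-AM against Ctrl-AM and -0.21 in Tumor-macrophage against Ctrl-AM. Cd14 passed in Tumor-AM against Ctrl-AM in all 19 alternatives, and Unc93b1 and Ripk2 in all but the 2-fold requirement. Same-numbered samples of different groups deviated together with r from -0.06 to 0.16, against -0.15 to 0.10 for other numbers, and 7 of 9 samples correlated best with their own number. Between Tumor-AM and Tumor-macrophage, both from tumor-bearing mice, same-number r was 0.026, 0.0964 and 0.109. Other numbers of these groups gave -0.101 to 0.00617, without overlap. Not every same-number r was over 0.1, the limit used here, so the main fit did not pair samples. Whether same-numbered samples shared a mouse was not tested. With the replicate block, 2, 13 and 12 receptors, 3, 6 and 11 adaptors and kinases and 13, 33 and 37 other pathway genes passed in the 3 comparisons. Depth limits Tlr1 and Tlr9 in AMs, which rest on few estimated reads.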
